A study of Mus musculus with 4 samples.

Results

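Interferon-stimulated genes, the interferon receptor, interferon regulatory factors and nucleic acid sensors were examined as 1 list of 47 named genes out of 50600 genes in the count files. The genes were taken by symbol, and every one of the 47 was found. They were measured by RNA-seq in T cells of strain C57BL/6NJ mice, as primary cells, as a single group of 4 libraries whose labels carry the biological replicate numbers 1 to 4. The labels give the age as unknown and the sex as not collected, and place the 4 biosamples under 1 shared donor identifier without saying whether they came from separate animals. The file headers call the cells Th0, activated, at 16 h, and the labels link a differentiation protocol for CD4+ T cells. The term Th0 usually stands for helper T cells stimulated in the absence of polarising cytokines. No treatment with an interferon and no genetic change is named for any library. With a single group, induction by interferon could not be measured, and each value below is a level in these cells.

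Type I interferons bind a receptor made of IFNAR1 and IFNAR2, whose kinases JAK1 and TYK2 start the signal. It ends in a complex with IRF9 that binds the interferon-stimulated response element in the promoters of antiviral genes. Upstream of interferon, the RNA helicases RIG-I and MDA5 signal through MAVS, and the DNA sensor cGAS signals through STING, to activate IRF3. IRF7 is itself interferon-induced in many cells and amplifies the response. T cells are known to carry much of this sensing machinery.

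Levels are given in TPM, that is read pairs per base of exonic length scaled to the same total in each library, always in the order of replicates 1 to 4. CPM is the read pairs of a gene scaled in the same way without regard to length. A gene is called detected where no library fell under 1 TPM and high where none fell under 10 TPM. A member under 1 TPM in at least 1 library is called near the floor. The files held 46192242 to 63313389 counted read pairs per library, so a count of 0 allows up to 3 read pairs, or 0.0474 to 0.0649 CPM, and these limits cover counting error only.

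The genes that receive interferon and most of those that sense nucleic acids were detected. The effector genes were split, and Ifit1, Mx1, Rsad2 and Oas1a were among those near the floor. Of the 47 members 28 (59.6%) were detected, and 45.2% of all protein-coding genes were. At 10 TPM or more in every library stood 16 members (34%), beside 34.6% of protein-coding genes, so the share of high members was near that background. A further 12 were detected below that level, and 19 (40.4%) were near the floor. By role, both receptor genes, 5 of 6 regulatory factors and 5 of 7 sensors and adaptors were detected. Among effectors, 5 of 11 RNA-directed genes and 3 of 9 membrane and entry genes were detected. The shares were 2 of 3 for the ISG15 and ubiquitin-like system and 3 of 4 for guanylate-binding proteins. Of the other interferon-stimulated genes in the list 3 of 5 were detected. In bulk libraries fewer cells that express a gene and less RNA per cell cannot be told apart. The restriction factor gene Bst2 alone held 25.7% of the members' summed TPM. That sum was 987, 1004, 986 and 1018 TPM in replicates 1 to 4.

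Promoter sequences are shown first because genes of 1 cluster stood far apart in level. The stretches are RefSeq sequence of build GRCm38.p6, read 5′ to 3′ on the gene's strand, and leave out the bases of annotated exons. Capitals mark matches to the core of the interferon-stimulated response element, GAAANNGAAA, on either strand. The first 3 lines are members of the Ifit cluster, whose products bind viral RNA, and the next 3 are the ubiquitin-like modifier gene Isg15, Bst2 and the oligoadenylate synthetase gene Oas1a.

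Ifit1, chr19:34640769-34640870, + strand: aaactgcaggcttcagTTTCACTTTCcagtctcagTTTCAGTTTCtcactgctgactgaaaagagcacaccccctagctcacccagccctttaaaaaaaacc
Ifit3, chr19:34583359-34583528, + strand: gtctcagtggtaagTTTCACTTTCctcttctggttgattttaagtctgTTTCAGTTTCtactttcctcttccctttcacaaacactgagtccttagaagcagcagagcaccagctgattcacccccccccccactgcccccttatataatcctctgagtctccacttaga
Ifit2, chr19:34550524-34550693, + strand: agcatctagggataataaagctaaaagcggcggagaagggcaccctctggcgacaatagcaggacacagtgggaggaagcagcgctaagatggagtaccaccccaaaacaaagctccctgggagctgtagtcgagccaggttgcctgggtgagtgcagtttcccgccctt
Isg15, chr4:156200819-156200938, - strand: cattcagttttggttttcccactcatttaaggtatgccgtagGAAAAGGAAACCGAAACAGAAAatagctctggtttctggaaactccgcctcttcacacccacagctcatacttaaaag
Bst2, chr8:71537473-71537622, - strand: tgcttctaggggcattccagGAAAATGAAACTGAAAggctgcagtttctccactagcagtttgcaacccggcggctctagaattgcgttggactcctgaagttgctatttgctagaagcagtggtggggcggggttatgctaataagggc
Oas1a, chr5:120907526-120907625, - strand: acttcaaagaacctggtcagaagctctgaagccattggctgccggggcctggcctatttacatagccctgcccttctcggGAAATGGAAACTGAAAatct

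Ifit1 and Ifit3 each held 2 separate matches, Isg15 held 3 that overlap, and Bst2 and Oas1a held 2 that overlap. The Ifit2 stretch, the 170 bases before the gene's outermost annotated start, held none. Starts further within the gene, which runs to 34576419, are not covered by this stretch. The Ifit2 counts merge transcripts from all starts, and a link between matches and level was not tested.

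**Figure D1:**
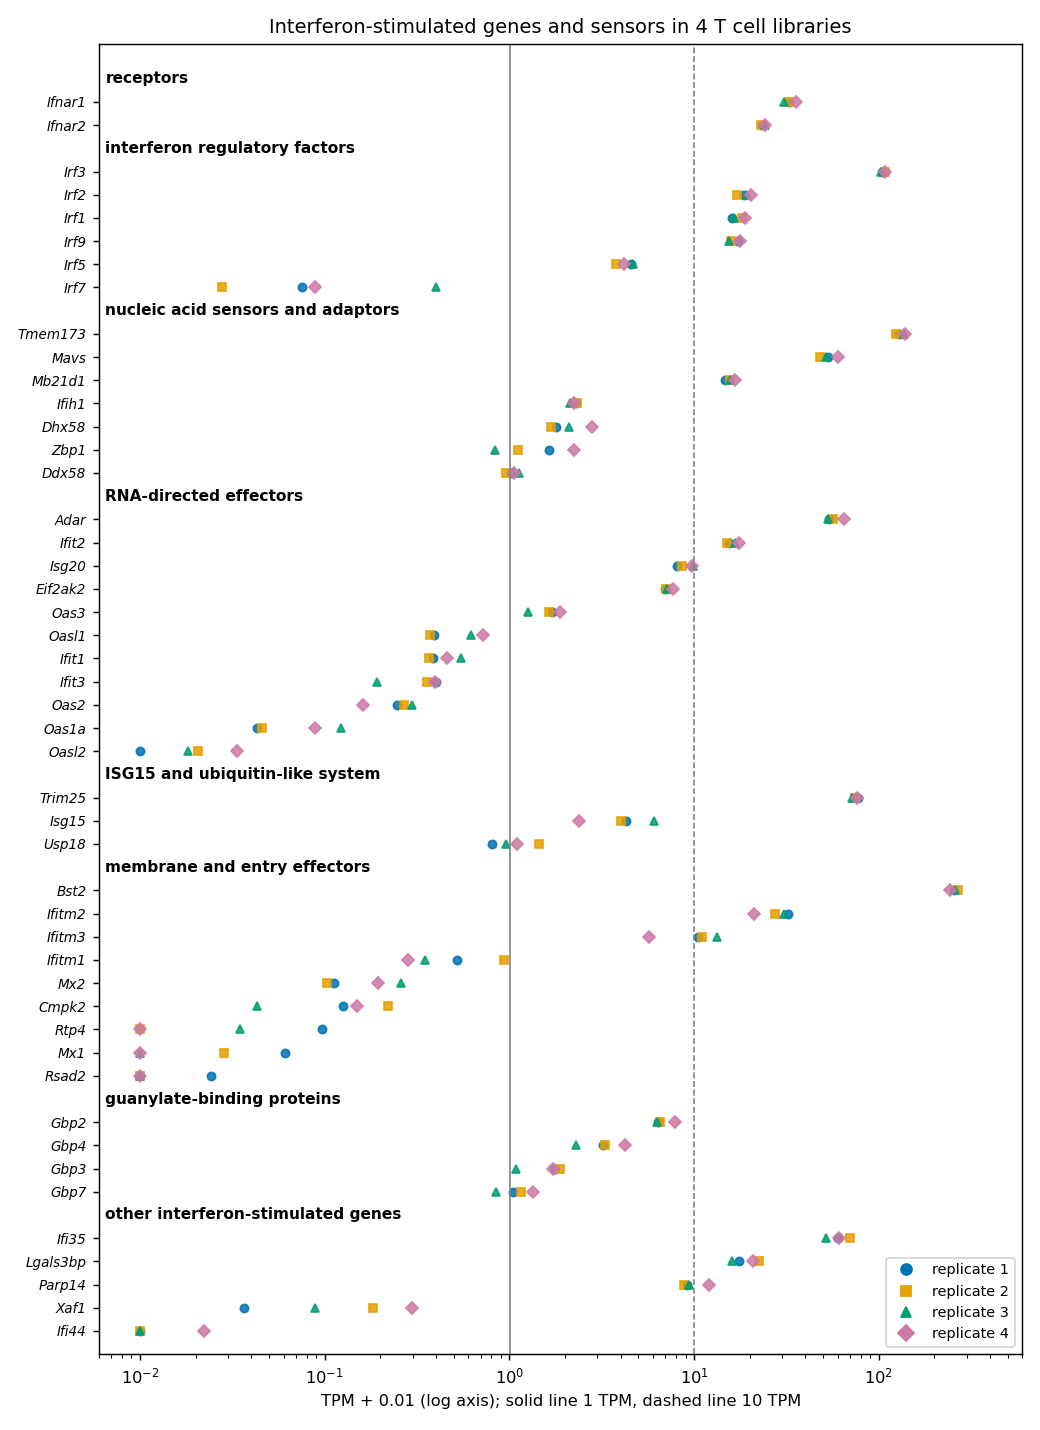
TPM (log axis, with 0.01 added so that a count of 0 can be drawn) of each member in each of the 4 libraries, grouped by role and ordered by mean within a role; the lines mark 1 and 10 TPM. Receptors and most regulatory factors lie right of 10 TPM with the 4 symbols close together, while 19 members have at least 1 library left of 1 TPM.

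Both receptor chains were high. Ifnar1 (ENSMUSG00000022967.12, chromosome 16, 91485238 to 91507441 in mm10) stood at 32.5, 32.8, 30.7 and 35.8 TPM, a mean of 32.96 ± 2.12 (SD, n = 4). Ifnar2 (ENSMUSG00000022971.18), on the same chromosome with Il10rb between them, stood at 23.3, 22.9, 24.2 and 24.3 TPM. The ranges did not overlap, and Ifnar1 was higher in 4 of 4 libraries, by 0.46 ± 0.09 in log2(TPM + 1). By the exact two-sided sign-flip permutation test over libraries this gave p = 0.125, the smallest that 4 libraries allow, and 0.143 after Benjamini-Hochberg adjustment over the 16 pairs compared. The Ifnar2 value depends on annotation: 9.5% of its exonic length is shared with Gm21970 on the same strand, and without those bases its mean was 26.2 TPM.

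Irf3, which encodes the factor activated by the sensor pathways, was the highest of the 6 regulatory factors and Irf7 the lowest. Irf3 (ENSMUSG00000003184.15) stood at 104, 109, 103 and 108 TPM, which placed its mean at rank 1878 of 21764 protein-coding genes. Irf7 (ENSMUSG00000025498.15) had 4, 1, 28 and 4 read pairs, or 0.07, 0.02, 0.39 and 0.08 TPM. Of these 37 read pairs, replicate 3 held 28, and the other 3 libraries were close to the limit that a count of 0 allows (0.0421 to 0.0592 TPM). Irf3 exceeded Irf7 in 4 of 4 libraries, by 6.56 ± 0.24 in log2(TPM + 1) (exact p = 0.125, adjusted 0.143).

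The summed macrophage and monocyte markers were also highest in replicate 3 (4.14, 1.94, 6.29 and 4.803 TPM over 8 genes, with Cd14 and Fcgr1 at 0 in every library). The 8 plasmacytoid dendritic cell markers summed to 312, 339, 320 and 312 TPM, highest in replicate 2. Nearly all of this was Bst2 and Irf8, and the other 6 summed to 1.73, 1.01, 2.29 and 1.26 TPM, of which Spib made up 1.43, 0.707, 2.00 and 1.01 TPM. Their part in the Irf7 value was not tested.

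Irf1, Irf2 and Irf9 lay close to each other. Irf1, an activator induced by interferon-gamma, stood at 16.1, 18.2, 16.4 and 18.8 TPM. Irf2, which binds the same element and can repress it, stood at 18.6, 17.0, 19.2 and 20.3 TPM. The ranges of Irf1 and Irf2 overlapped, and their difference of -0.11 ± 0.14 was within the spread between libraries (exact permutation p = 0.250, adjusted 0.267). Irf9, the DNA-binding part of the interferon-activated complex, stood at 17.2, 15.8, 15.4 and 17.7 TPM. In 4 of 4 libraries Irf9 exceeded Irf7, by 3.95 ± 0.27 in log2(TPM + 1) (exact p = 0.125, adjusted 0.143). Irf5, a factor better known from myeloid and B cells, was detected at 4.53, 3.77, 4.67 and 4.18 TPM.

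The DNA sensing route was high and the RNA helicases were low. Tmem173 (ENSMUSG00000024349.9, chromosome 18, 35733678 to 35740554), which encodes STING, stood at 129, 124, 137 and 138 TPM. Mb21d1, which encodes cGAS, the enzyme that makes the cyclic dinucleotide read by STING, stood at 14.7, 15.6, 15.7 and 16.7 TPM. Tmem173 exceeded Mb21d1 in every library, by 3.00 ± 0.06 in log2(TPM + 1), or 8.43 times in mean TPM (exact p = 0.125, adjusted 0.143). Mavs, the mitochondrial adaptor of the RNA helicases, stood at 53.0, 47.8, 51.9 and 60.2 TPM.

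The 3 helicases themselves lay far below their adaptor. Ifih1, which encodes MDA5, stood at 2.30, 2.33, 2.12 and 2.22 TPM. Ddx58, which encodes RIG-I, stood at 1.01, 0.95, 1.11 and 1.06 TPM, and the single library under 1 TPM places it near the floor although its libraries held 99 to 148 read pairs. Dhx58, which encodes the regulatory helicase LGP2, stood at 1.78, 1.67, 2.11 and 2.80 TPM. Ddx58 was below Ifih1 in 4 of 4 libraries, by -0.67 ± 0.09 (exact p = 0.125, adjusted 0.143). Ifih1 and Dhx58 overlapped, with a difference of 0.08 ± 0.25 (exact permutation p = 0.375, adjusted 0.375). Zbp1, a sensor of Z-form nucleic acid that is linked to cell death, ranged most among the sensors, at 1.64, 1.11, 0.83 and 2.22 TPM.

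Among the 11 listed effectors that act on RNA, the editing enzyme gene Adar led. Adar stood at 53.7, 56.4, 53.2 and 64.5 TPM, and the counts merge its transcripts from all promoters. Eif2ak2, which encodes the kinase PKR that halts translation on double-stranded RNA, stood at 6.98, 7.02, 7.16 and 7.65 TPM, with an SD of 0.04 log2 CPM. In 4 of 4 libraries Adar exceeded Eif2ak2, by 2.82 ± 0.08 in log2(TPM + 1) (exact p = 0.125, adjusted 0.143). Isg20, an exonuclease gene, stood at 8.07, 8.58, 9.87 and 9.77 TPM.

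The Ifit genes were split. Ifit2 (ENSMUSG00000045932.12, chromosome 19, 34550694 to 34576419) stood at 15.5, 15.1, 16.7 and 17.5 TPM. Ifit1 (ENSMUSG00000034459.8), whose product recognises the cap of viral RNA, had 16, 14, 27 and 16 read pairs, or 0.37, 0.36, 0.54 and 0.45 TPM. Ifit3 had 11, 9, 6 and 9 read pairs, a mean of 0.327 ± 0.0979 TPM. All 3 lie within 99.3 kb of chromosome 19, and the mean of Ifit2 was 37.7 times that of Ifit1 and 49.6 times that of Ifit3. Ifit2 was higher in every library, by 3.59 ± 0.06 over Ifit1 and 3.70 ± 0.16 over Ifit3 (exact p = 0.125, adjusted 0.143 for each).

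How far shared sequence could lower the Ifit counts was checked with runs of 50 bases. Of the distinct 50-base runs of Ifit3, 51.2% also occur in the neighbouring copy Ifit3b, so its level is uncertain. The share was 7.1% for Ifit1 and 0 for Ifit2.

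Of the 5 listed genes of oligoadenylate synthetases, which act through an RNA-degrading enzyme, and of their relatives, only Oas3 was detected. It stood at 1.70, 1.63, 1.25 and 1.86 TPM. Oas2 had 17, 17, 24 and 9 read pairs, Oas1a had 1, 1, 4 and 2, and Oasl2 had 0, 1, 1 and 2. Oasl1 had 16, 14, 30 and 25 read pairs, or 0.517 ± 0.173 TPM, and exceeded Oasl2 in every library (by 0.58 ± 0.15 in log2(TPM + 1), exact p = 0.125, adjusted 0.143). Oas1a shares 57.6% of its 50-base runs with Oas1g, so its count is uncertain. Outside the list, Oas1b and Oas1c, named here after their values were seen, had higher means than Oas3, at 3.09 and 4.14 TPM.

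Trim25, the ubiquitin ligase gene of the RIG-I pathway, was the high member of the ubiquitin-like group. It stood at 76.8, 74.5, 71.8 and 76.7 TPM. Isg15 (ENSMUSG00000035692.6), the interferon-induced modifier itself, had 52, 45, 86 and 24 read pairs, or 4.27, 4.03, 6.03 and 2.36 TPM. Replicate 4 was the lowest and replicate 3 the highest. Usp18, which encodes the protease that removes ISG15 and restrains receptor signalling, lay across the floor at 0.80, 1.43, 0.95 and 1.09 TPM. Isg20 exceeded Isg15 in 4 of 4 libraries, by 1.00 ± 0.47 in log2(TPM + 1) (exact p = 0.125, adjusted 0.143).

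Bst2, which encodes tetherin, a protein that holds budding virus at the cell surface, was the highest of all 47 members. Bst2 (ENSMUSG00000046718.8, chromosome 8, 71534255 to 71537456) stood at 255, 268, 260 and 244 TPM, rank 686 among protein-coding genes. Bst2 is also a marker of plasmacytoid dendritic cells. Of the 8 markers listed for those cells, Bst2 and Irf8 (62.3 ± 7.02 TPM) were detected, Siglech, Cox6a2 and Klk1 had no count in any library, and Spib, Tcf4 and Ccr9 stood at 1.29, 0.272 and 0.0125 TPM in mean.

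The Ifitm genes, whose products block viral entry at membranes, spanned a wide range on chromosome 7. Ifitm2 stood at 32.3, 27.4, 30.8 and 21.2 TPM, Ifitm3 at 10.5, 10.97, 13.3 and 5.71 TPM, and Ifitm1 had 9, 15, 7 and 4 read pairs (0.512 ± 0.294 TPM). Replicate 4 was the lowest library for all 3. Ifitm2 exceeded Ifitm3 by 1.41 ± 0.26 in log2(TPM + 1), and Ifitm1 was below Ifitm3 by -2.85 ± 0.44, each in 4 of 4 libraries (exact p = 0.125, adjusted 0.143). Ifitm2 is uncertain, since 40.9% of its exonic length is shared with Gm45717 on the same strand and 48.5% of its 50-base runs occur in other genes. Without the shared bases its mean rose from 27.9 to 47.2 TPM, so the order of Ifitm2 and Ifitm3 was the same.

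The remaining membrane and entry effectors were near the floor in every library. Mx2, an antiviral GTPase gene, had 6, 5, 17 and 9 read pairs and Mx1 had 3, 1, 0 and 0. Rsad2, which encodes viperin, had 1 read pair in all, and its neighbour Cmpk2, a nucleotide kinase gene, had 6, 10, 2 and 6. Rtp4 had 3, 0, 1 and 0. The limit that a count of 0 allows was 0.0368 to 0.0516 TPM for Rsad2 and 0.0436 to 0.0613 TPM for Mx1, and lower levels were not detectable at this depth.

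The 4 listed genes of guanylate-binding proteins, GTPases that attack the vacuoles of intracellular pathogens, had means between 1 and 10 TPM. Outside the list, Gbp5, Gbp9 and Gbp8 had means of 5.65, 2.04 and 1.58 TPM, and Gbp6, Gbp10, Gbp11 and Gbp2b had 0.160 TPM or less. Gbp2 stood at 6.36, 6.53, 6.26 and 7.87 TPM, Gbp3 at 1.77, 1.86, 1.07 and 1.71, Gbp4 at 3.21, 3.28, 2.30 and 4.24, and Gbp7 at 1.039, 1.14, 0.84 and 1.34. Replicate 3 was the lowest library for each of the 4 genes, and replicate 4 was the highest for all but Gbp3. Gbp2 exceeded Gbp3 by 1.58 ± 0.21 in log2(TPM + 1), and Gbp7 was below Gbp4 by -1.01 ± 0.13, each in 4 of 4 libraries (exact p = 0.125, adjusted 0.143). Gbp7 is uncertain, with 11.3% of its exonic length shared with Gm43802 and a mean of 1.23 rather than 1.09 TPM without those bases.

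Of the last 5 members, Ifi35 and Lgals3bp were high. Ifi35, an interferon-induced leucine zipper gene, stood at 60.3, 69.5, 51.5 and 61.3 TPM, and Lgals3bp, which encodes a secreted galectin-binding glycoprotein, at 17.5, 22.4, 16.1 and 20.8 TPM. Both had their highest value in replicate 2 and their lowest in replicate 3. Parp14, an ADP-ribosyltransferase gene, stood at 9.15, 8.84, 9.40 and 12.1 TPM. Xaf1, a pro-apoptotic gene, had 2, 12, 7 and 18 read pairs, and Ifi44 had 0, 0, 0 and 1.

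Several members sat near a class limit. Just above 1 TPM in their lowest library were Gbp3 (1.07) and Oas3 (1.25), and just under it were Ddx58 (0.95), Gbp7 (0.84), Zbp1 (0.83) and Usp18 (0.80). These last 4 were the only near-floor members that reached 1 TPM in some library, and the other 15 were under 1 TPM in every library. Just under 10 TPM in their lowest library were Parp14 (8.84) and Isg20 (8.07). The high members with the lowest such values, Mb21d1 (14.7) and Ifit2 (15.1), lay further from that limit. Ifitm3 reached 10 TPM in replicates 1 to 3 and not in replicate 4. No member was without a count in all 4 libraries, 5 had a count of 0 in at least 1 library, and 5 never exceeded 3 read pairs.

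In the order of mean levels from Bst2 downward, 32 members had a mean of 1 TPM or more. The 4 libraries' ranges did not overlap in 9 of the 31 pairs of neighbours in that order. These were Bst2 over Tmem173, Tmem173 over Irf3, Irf3 over Trim25, Trim25 over Ifi35, Mavs over Ifnar1, Ifnar2 over Lgals3bp, Mb21d1 over Ifitm3, Isg20 over Eif2ak2 and Gbp2 over Irf5. In the other 22 neighbour pairs the ranges overlapped. Of these, only Irf2 over Irf1 and Ifih1 over Dhx58 were also compared within libraries, with the results given above.

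**Figure D2:**
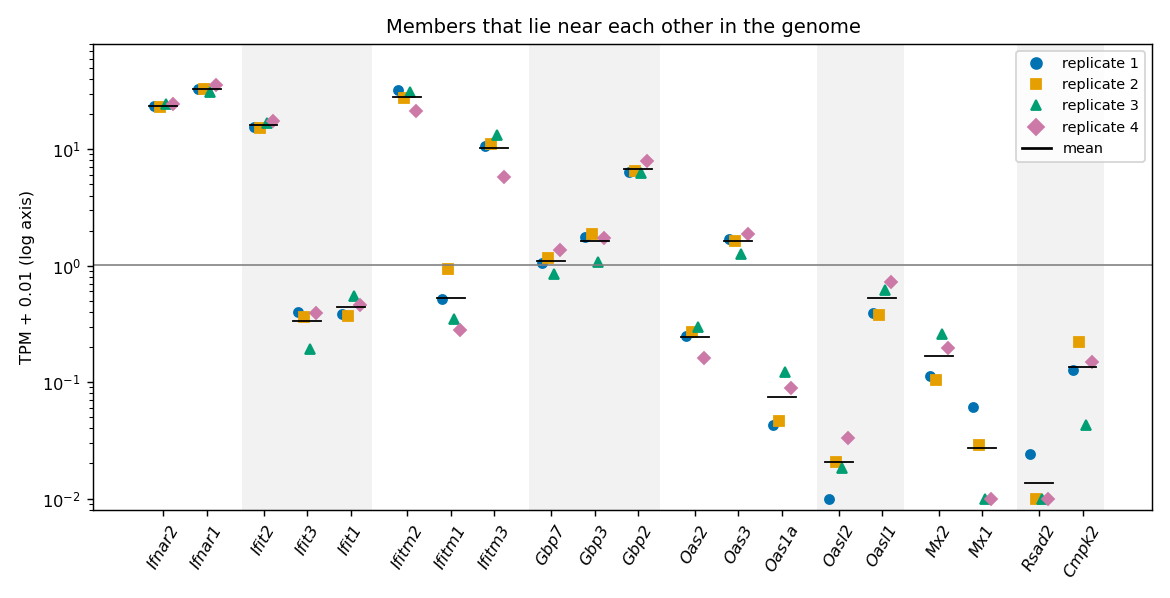
TPM with 0.01 added (log axis) of members that lie near each other in the genome, by gene cluster in genome order, with each of the 4 libraries as a symbol and their mean as a bar; the line marks 1 TPM. In the Ifit cluster Ifit2 lies above 15 TPM while Ifit1 and Ifit3 lie under 1 TPM in every library.

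Members of 1 cluster could differ widely in level. Besides the Ifit cluster, the 3 Ifitm genes within 55.9 kb had means from 0.512 to 27.9 TPM, and the 3 Oas genes within 177 kb of chromosome 5 from 0.0651 to 1.61 TPM. Gbp2, Gbp3 and Gbp7, within 108 kb of chromosome 3, differed by 6.19 times at most. The receptor genes, within 135 kb of chromosome 16, differed by 1.39 times.

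Variation between libraries was tested with edgeR's quasi-likelihood fit across all genes, in which a gene is called when its residual dispersion exceeds that of genes of like abundance. Of 12285 genes tested 28 (0.228%) passed an adjusted p of 0.05. Of the 34 members tested 0 passed, and their lowest adjusted p was 0.850 by edgeR. At an unadjusted p under 0.05 were 3 of 34 members (8.82%), beside 666 genes (5.42%) of all tested. These were Gbp4 (unadjusted p of 0.0281), Ifi35 (0.0353) and Parp14 (0.0481) in the edgeR fit. DESeq2 marked 68 genes (0.554%) as dispersion outliers and 0 members among them. The other 13 members had too few counts to be tested. The labels do not say whether the libraries came from separate animals, so these p-values measure the spread between these samples only, which may be technical.

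The SD of log2 CPM over libraries had a median of 0.12 for the 32 members with a mean of at least 1 TPM and 0.09 for 11366 genes tested at that level. With a mean of at least 10 TPM it was 0.09 for 17 members and 0.08 for 8139 genes. The smallest SDs among high members were those of Ifnar2 (0.03), Irf3 (0.04) and Trim25 (0.05). Among the 34 tested the widest were those of Zbp1 (0.59), Isg15 (0.55) and Ifitm3 (0.53), and these 3 genes were picked out after their values were seen.

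**Figure D3:**
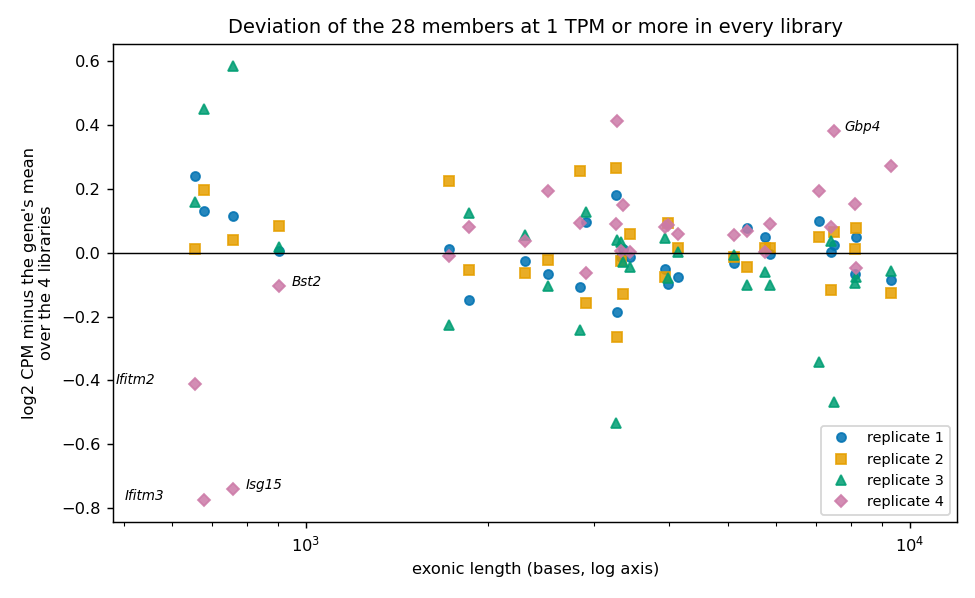
Deviation of each of the 28 detected members from its own mean over the 4 libraries (log2 CPM) against exonic length (log axis), with a symbol per library. In replicate 4 the 4 members under 1 kb lie below their mean, from -0.10 for Bst2 to -0.78 for Ifitm3, and most members of 3 kb or more lie above it.

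Replicate 4, the library with the fewest read pairs, stood apart for short members. Isg15, Ifitm2, Ifitm3 and Bst2, the 4 detected members with less than 1 kb of exonic length, all lay below their own mean in replicate 4, with a median deviation of -0.57 on the log2 CPM scale. Over all 960 genes of that length the median deviation was -0.05, and 43% lay above their mean. Of the 6 members of 1 to 3 kb, 4 lay above their mean in replicate 4 (66.7%, median 0.06). For 3309 genes of that length the share was 36.3% and the median -0.04. Of the 18 members of 3 kb or more, 17 lay above their mean in replicate 4 (94.4%, median 0.08), beside 58.9% and a median of 0.02 for 7097 genes of that length. Replicate 4 was the highest library for 12 of 28 detected members, beside 30.1% of 11366 genes. Replicate 3 was the lowest for 12 of 28, beside 23.6% of those genes. The part of gene length or depth in these differences was not tested. The same libraries also differed in B cell markers, which summed to 9.80, 6.98, 7.46 and 3.00 TPM over 8 genes, none of them detected.

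The promoters were searched for 2 motifs in RefSeq windows of 300 bases, from 250 before to 50 after each start, on both strands. Of the 47 members 37 had a window, and Dhx58, Tmem173, Zbp1, Oas2, Usp18, Rtp4, Mx1, Mx2, Gbp4 and Parp14 had none in the table. The core GAAANNGAAA lay in a window of 16 of 37 members (43.2%), beside 3.99% of 27025 genes. The list was drawn up as interferon-stimulated genes, a class known for this element, so the share describes the list and is not independent of it.

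Among members high in every library 3 of 15 (20%) held the core, namely Irf2, Ifitm2 and Bst2. Among those detected below that level 7 of 9 (77.8%) did, namely Ifih1, Oas3, Eif2ak2, Isg15, Ifitm3, Gbp2 and Gbp3. Among near-floor members 6 of 13 (46.2%) did, namely Ddx58, Ifit1, Ifit3, Oas1a, Rsad2 and Gbp7. The matching shares of all protein-coding genes with a window were 3.32%, 4.34% and 4.46%. The order of the classes depended on the definition. With the upstream part of the window alone the shares were 3 of 15 (20%), 4 of 9 (44.4%) and 5 of 13 (38.5%). Where the core had to be followed by CT they were 1 of 15 (6.67%), 3 of 9 (33.3%) and 5 of 13 (38.5%), which put the near-floor class first. With numbers this small the classes were not compared by a test. The matches printed above lie at -104 and -85 from the start for Ifit1, -156 and -122 for Ifit3, -78, -72 and -66 for Isg15, -130 and -124 for Bst2, and -20 and -14 for Oas1a, counted to the first base of each match. A match is a run of letters and not a measured binding site.

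The core of the gamma-activated site, TTCNNNGAA, an element of genes that respond to interferon-gamma, lay in a window of 13 of 37 members (35.1%), beside 9.55% of all genes. As the list was drawn up as interferon-stimulated genes, this share too is not independent of it. The gamma-activated core was found in 8 of 15 high members (53.3%), 3 of 9 detected below that level and 2 of 13 near the floor. The matching shares of protein-coding genes were 7.86%, 9.55% and 9.75%. With numbers this small the classes were not compared by a test for this core either. Both motifs lay in the promoter windows of Irf2, Oas1a, Eif2ak2, Ifitm3, Bst2 and Gbp7. In Bst2 the gamma-activated core lay at -136, where it shares bases with the first interferon-stimulated core. The ratio of observed to expected CG steps in the windows had a median of 0.616 for high members, 0.238 for those detected below that level and 0.291 for near-floor members. For protein-coding genes of the same classes the medians were 0.807, 0.698 and 0.284.

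**Figure D4:**
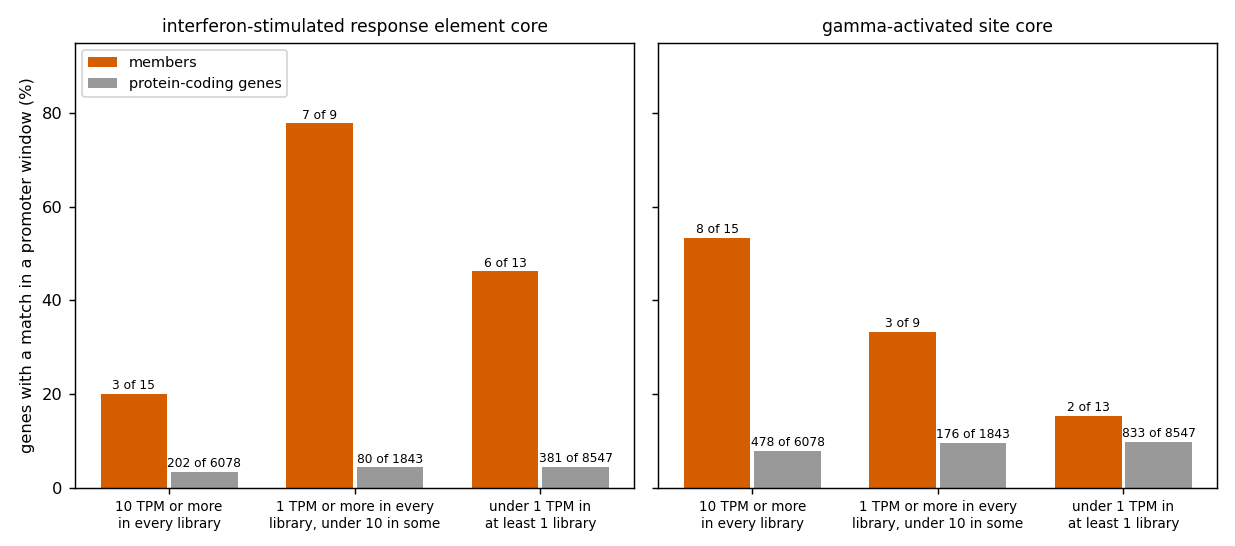
Share of genes (%) with at least 1 match in a promoter window, for the response element core (left) and the gamma-activated core (right), by level class, for members and for all protein-coding genes with a window; the number over each bar gives genes with a match of genes with a window. Among members the response element core is rarest in the high class (3 of 15), and the gamma-activated core is most frequent there (8 of 15). The classes were not compared by a test.

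The rest of the pathway was followed with 157 further genes in fixed lists, of which 100 were detected and 69 were high. Interferon transcripts themselves were hardly found: 0 of 20 type I and type III interferon genes were detected and 18 had no count in any library. Ifnb1 and Ifnab had 1 read pair each over the 4 libraries. Many of these genes share sequence, up to 67.4% of the 50-base runs of Ifna1 and 75.1% of those of Ifnz, so their counts are uncertain. Ifng, which encodes interferon-gamma, had 0, 1, 10 and 1 read pairs, or 0, 0.0522, 0.410 and 0.0575 TPM, so replicate 3 held most of its signal, and 25.9% of its exonic length is shared with Gm49751. Its receptor genes were high, Ifngr1 at 28.2 ± 1.63 TPM and Ifngr2 at 23.1 ± 2.17 TPM. Of the receptor for type III interferon, Il10rb was high at 11.03 ± 0.618 TPM, and Ifnlr1, the chain specific to that receptor, had 3 read pairs.

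All 6 receptor kinases and STATs were detected. Jak1 stood at 188, 182, 186 and 202 TPM, Jak2 at 131, 118, 117 and 132 TPM, and Stat3 at 54.0, 56.8, 59.3 and 59.6 TPM. Stat2, whose product joins IRF9 in the interferon-activated complex, was lower than these, at 8.06 ± 0.881 TPM. Of 6 other genes of the regulatory factor group all were detected, led by Irf4, the factor induced by T cell receptor signals, at 1401, 1398, 1420 and 1589 TPM. The corepressor genes Irf2bp1 (91.8 ± 4.62 TPM) and Irf2bp2 (77.6 ± 4.97 TPM) followed.

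Among kinases and adaptors that link sensors to regulatory factors 11 of 12 were detected, led by Myd88 (139 ± 3.40 TPM), Irak1 (134 ± 7.85 TPM) and Traf3 (69.6 ± 4.202 TPM). Of 5 genes for endosomal Toll-like receptors and their chaperone only Unc93b1, the chaperone, was detected (8.47 ± 1.01 TPM). Tlr7 stood at 0.725 ± 0.203 TPM and Tlr9 at 0.290 ± 0.134 TPM. Tlr3 and Tlr8 had no count. Of 12 genes that restrict or clear nucleic acid 10 were detected. Trex1 was listed at 0, but its exonic length lies wholly within another gene's exons on the same strand (100%), so its level could not be read. The list was led by Zc3hav1 (130 ± 6.49 TPM), which encodes a zinc finger antiviral protein, Rnaseh2c (87.8 ± 4.32 TPM) and the editing enzyme gene Adarb1 (63.0 ± 3.96 TPM).

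Of 75 interferon-stimulated genes outside the 47, 48 were detected and 27 were high. B2m, the light chain of MHC class I, led at 2053 ± 108 TPM, followed by Ly6e at 343 ± 22.9 TPM and Ddx24 at 235 ± 6.18 TPM. Of 16 negative regulators 15 were detected, led by the phosphatase genes Ptpn6 (659 ± 19.5 TPM) and Ptpn11 (140 ± 7.14 TPM) and the deubiquitinase gene Otud5 (79.5 ± 2.25 TPM). In the edgeR spread test 0 of the 104 pathway genes tested passed, beside 0.228% of all genes, 5 (4.81%) had an unadjusted p under 0.05, and DESeq2 marked 0 of them. The lists served to place the members, and their medians and counts are no test of the pathway's activity.

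**Figure D5:**
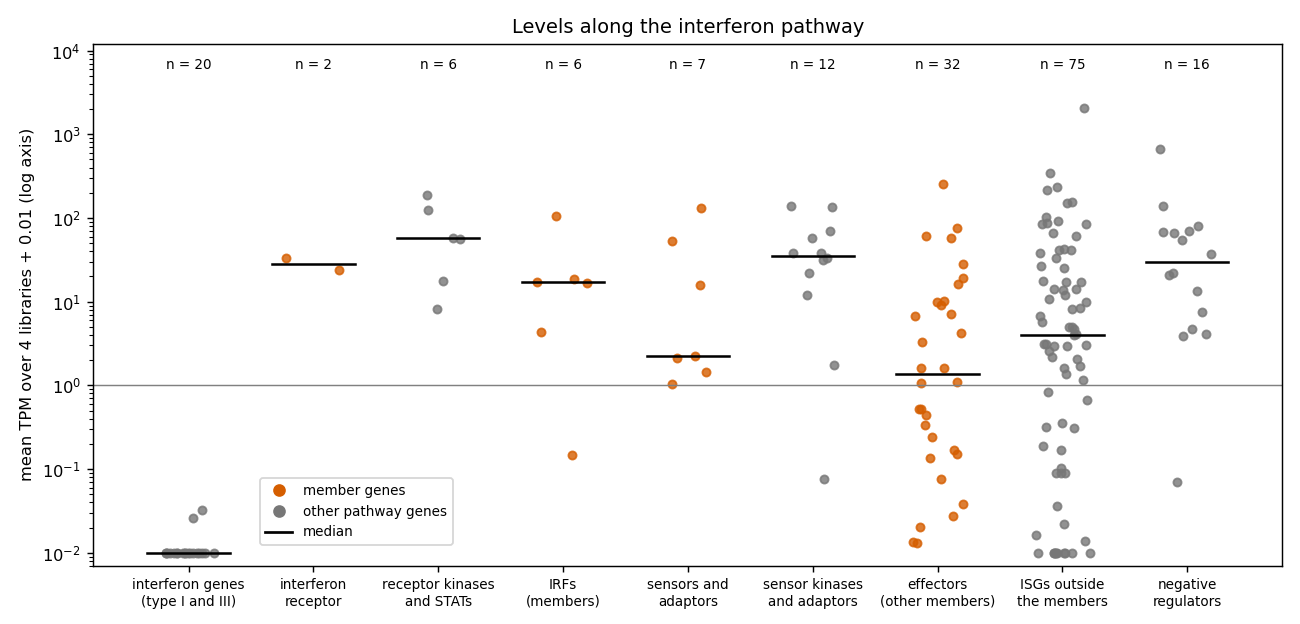
Mean TPM over the 4 libraries with 0.01 added (log axis) for genes along the pathway, with the 47 members in orange, other pathway genes in grey and the median of each group as a bar; the line marks 1 TPM. The interferon genes lie at the bottom with 18 of 20 at 0, the receptor chains and most kinases above 10 TPM, and the effectors spread from 0.00304 to 257 TPM.

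The labelled cell type was checked against its markers. All 8 T cell markers were detected and summed to 5935 to 6171 TPM per library. Of 8 markers each for B cells, natural killer cells and neutrophils none was detected, and the 8 neutrophil markers had no count. Macrophage and conventional dendritic cell lists had 1 of 8 markers detected each, with sums of 1.94 to 6.29 and 3.31 to 4.98 TPM. The plasmacytoid dendritic cell list had 2 of 8 detected, Bst2 and Irf8, with sums of 312 to 339 TPM.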

How the data were processed

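RNA was measured in 4 libraries of 1 group, labelled as total RNA-seq, although the linked library protocol is named for a polyA+ method. The authors deposited unnormalized counts (read pairs per gene), and no row lacked a gene. Per the file headers, featureCounts 1.4.6-p4 counted STAR alignments over exons of GENCODE M13 genes with strand setting 2 (reverse-stranded) and both mates required. No STAR version was found in the labels or headers, nor an option for reads that match several genes, so near-identical genes can lose counts. The build is mm10, per the labels.

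TPM was computed from the deposited counts and exonic lengths. Symbols came from GENCODE M21, in which 50376 of 50600 identifiers matched, and the other 224 held at most 0.0111% of a library; Mb21d1 is listed there as Cgas. Total counts ran from 46192242 to 63313389. Spread between libraries was fitted in edgeR 4.0.16 under R 4.3.3 (TMM factors 0.9986 to 1.0006, filterByExpr, an intercept-only design, robust quasi-likelihood fit). The quasi-dispersion left over for a gene (3 residual degrees of freedom) was compared with the trended prior (13.9 degrees of freedom) by an upper-tail F test, with Benjamini-Hochberg adjustment over all genes tested. Size factors and dispersion outliers of DESeq2 1.42.0 were alternatives. The procedure was tested on simulated counts first, with extra spread added to well-counted genes only. The outcome of that simulation is not given here and does not cover members with few read pairs. Pairs were compared within libraries on log2(TPM + 1) by exact sign-flip permutation. SDs of log2 CPM used a prior count of 2. Python 3.11.15, numpy 2.4.6, pandas 2.3.3 and matplotlib 3.10.9 were used.

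The members and lists were chosen with earlier results of these data known. By rule, receptors, regulatory factors, sensors and every high member are given in full, the other members by values or counts, and of each further list the 3 genes of highest mean. Alternatives covered scaling, filters, floors, pseudocounts, the spread test, motif definitions and each replicate left out. Promoters on chromosome 18 were not used, and the level of 1 further pathway gene is not reported here.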

Additional observations from a re-analysis of the deposited data

Results flagged for a closer look

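Each of the 47 members was checked for a library far from the other 3, by whether the gap to the nearest library exceeded Dixon's critical share of the gene's whole range for groups of 4. Chance alone gives such a gap in about 1 in 20 groups of 4, a rate that does not hold for genes with a few read pairs. It was met by 4 of the 47 members. The share of all genes that meet the rule is not given, so this count has no background beside it. Irf7 reached 0.393 TPM in replicate 3, with a gap of 0.838 of its range and 37 read pairs in all. Gbp2 reached 7.87 TPM in replicate 4, with a gap of 0.833 of its range and 1064 read pairs in all. Rsad2 at 0.0143 TPM in replicate 1 and Ifi44 at 0.0122 TPM in replicate 4 each rest on 1 read pair, which meets the rule by construction.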

How the results depend on the processing

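The count of 0 members past the spread threshold was the same under every alternative run. The count of 28 genes of all tested became 142 with no filter beyond 1 count, 15 without the robust fit and 68 as DESeq2 dispersion outliers, and ran from 14 (without replicate 3) to 27 (without replicate 4) with 1 replicate left out. Detected members ran from 25 at a doubled floor to 32 by the mean over libraries, and from 28 to 30 with 1 replicate left out. The 16 members at 10 TPM or more became 10 at a doubled floor, and 16 to 17 with 1 replicate left out. The members' median SD of 0.12 became 0.0854 with a mean of at least 10 TPM, and ran from 0.0966 (without replicate 4) to 0.132 (without replicate 1). The 16 members with the response element core became 9 where the core had to be followed by CT, a form held by 0.303% of all genes, and 12 in the upstream part alone. The direction of the 16 pair differences was kept in 96 of 96 recomputed values. Of 235 recomputed member means 8 moved by more than 1 SD, all with TPM taken over protein-coding genes alone. Exonic length without same-strand overlap, an alternative chosen after seeing the data, moved Ifitm2 to 47.2 and Ifnar2 to 26.2 TPM. No paired comparison between groups was possible because the libraries form a single group, and only pairs of genes were compared within libraries. A few counts per library limit what can be said of the 13 members outside the spread test.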
